A study of Arabidopsis thaliana with 4 samples.

Results

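Cytochrome P450 genes outside the glucosinolate pathway were described in roots of 5-day-old Arabidopsis thaliana seedlings. The members were all gene models of the deposited tables whose description names cytochrome P450, less 10 loci of glucosinolate, indole defence, iron and jasmonate metabolism. This gave 27 models at 25 loci, of 1518 models in either table. The table for ein3eil1 held 21 of them, the table for Col held 11, and 5 models were in both. The groups were the ein3eil1 double mutant (alleles ein3-1 and eil1-1) after 6 h with 150 µM CdSO4, ein3eil1 without treatment, the wild type Col after 6 h with 150 µM CdSO4, and Col without treatment. EIN3 and EIL1 are transcription factors of the ethylene signalling pathway. All seedlings grew on MS medium, and the labels call the tissue root tip and primary root. The labels do not say whether the controls were kept for the same 6 h. Neither EIN3 nor EIL1 was listed, so the genotype could not be checked. Each group was 1 library, which leaves every difference below without a replicate, and no test was made.

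Library totals were 16773595 to 19192279 reads. Levels are RPKM, the read count scaled by model length and by the library total. Ratios are Cd over control with a 95% exact Clopper-Pearson interval, which covers counting error only, as reads from amplified libraries are not independent molecules. Each table lists only models at least 2-fold apart that passed the authors' threshold on the comparison of 2 libraries. A P450 gene that is not named here can have changed less, or had too few reads to be listed. In RNA from root tissue, fewer cells of a type and less RNA per cell cannot be told apart.

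Cytochrome P450 enzymes carry a haem group and use molecular oxygen, with electrons passed on by a P450 reductase or cytochrome b5, to add hydroxyl groups to small molecules. Plants have large P450 families that make and break down hormones, sterols, triterpenes, phenylpropanoids and cuticle lipids, and others that respond to foreign chemicals. A CYP name gives the family number, a subfamily letter and the gene.

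The label was checked against the reference coding sequences of RefSeq (TAIR10.1). A pattern of 10 codons for the haem-binding loop, which holds the cysteine that binds the haem iron, was found in 24 of 25 member loci and in 228 of 27444 protein-coding loci (0.831%). CYP735A2 was the locus without a match, which says only that its loop departs from the pattern used. The cysteine codon was TGT in 17 loci and TGC in 7. The loops of 4 members listed in both genotypes are shown first, 5′ to 3′ on the coding strand, with the cysteine codon in capitals.
CYP81D8: tttgggttaggaagaagggcgTGTcctggt
CYP94D1: tttcatgctggaccaaggatgTGTgtaggg
CYP89A2: ttcggagcaggaagaaggataTGTccgggc
CYP71B13: tttggtagcggaaggagaataTGCcctggt
The loops of neighbouring genes of 3 subfamilies follow, because their coding sequences resemble each other. How much sequence each shares with other loci, in windows of 50 bases, is given with its values. That length was a choice and not a known read length.
CYP89A7: ttcggagcgggtagaaggataTGTcccggg
CYP89A6: tttggagcgggaagaaggataTGTcccggg
CYP710A3: tttggaattggctcgcaccaaTGCgtgggc
CYP710A4: tttggaaatggctcgcaccagTGTgtgggc
CYP706A1: tttgggtcaggaaggaggattTGTgcggcg
CYP706A2: tttgggtcaggaaggaggattTGTgcggcg
The loops of CYP706A1 and CYP706A2 are the same base for base. The whole coding sequences of CYP710A3 and CYP710A4 are 95.8% identical.

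In ein3eil1, 15 of the 20 P450 models with 1 RPKM or more had at least 2-fold more RPKM with Cd and 5 had at least 2-fold less. Over all listed models with 1 RPKM or more in this genotype, 62.4% were higher and 37.6% lower. In Col, 7 of 10 P450 models were higher and 3 lower, where 55.5% of all listed models were higher and 44.5% lower. The median log2 ratio of the P450 models was 1.53 in ein3eil1 (all listed models 1.14) and 1.37 in Col (all listed models 1.06). At least 4-fold higher, with the same minimum, were 3 P450 models in ein3eil1 and 1 in Col, against 15.7% and 15.2% of all listed models. The remaining model of each table, AT5G48000.1 of CYP708A2 in ein3eil1 and CYP71B9 in Col, was under 1 RPKM and is given with its family.

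**Figure D1:**
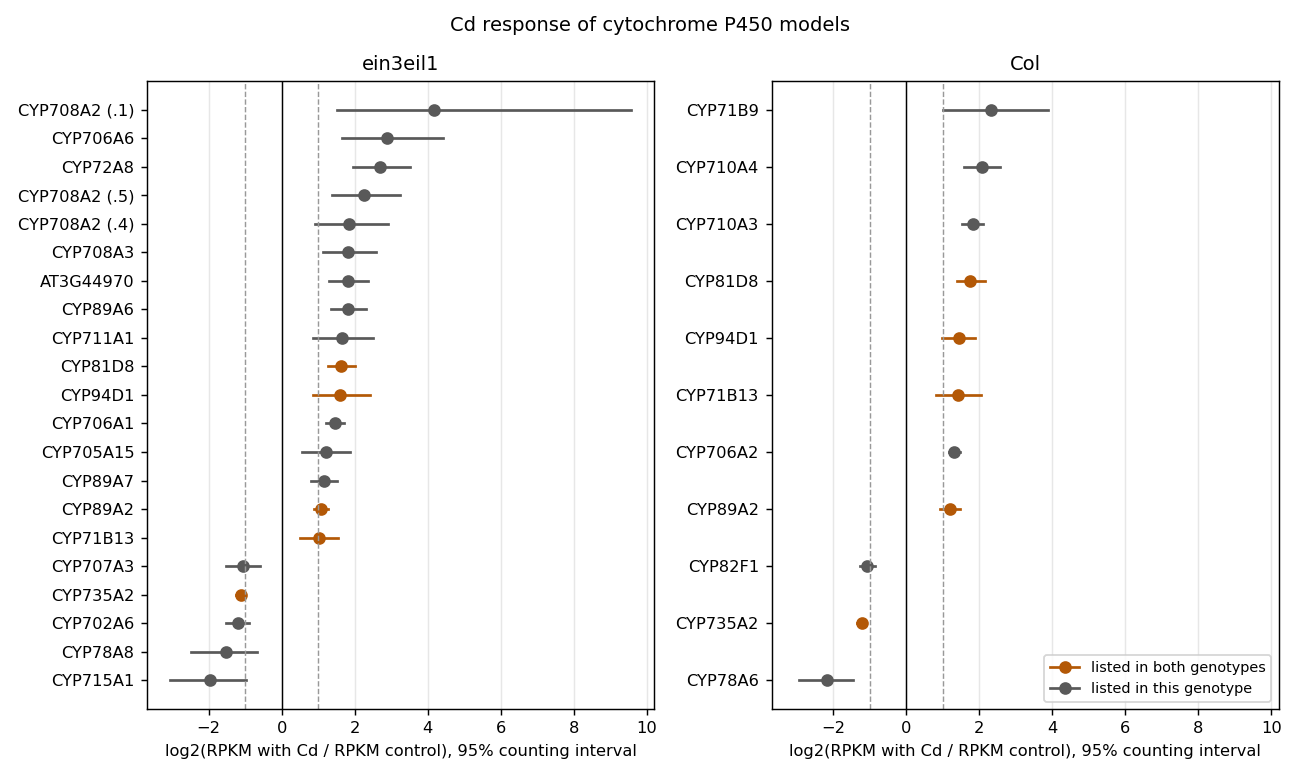
Log2 ratio of RPKM with Cd over control for each listed P450 model (points) with its 95% counting interval (lines), ein3eil1 left and Col right, dashed lines at 2-fold. In ein3eil1 16 models lie right of 0 and 5 left, in Col 8 and 3, and the widest interval is that of the CYP708A2 model AT5G48000.1, which rests on 1 control read.

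Set against the annotation, 19 of 238 P450 loci outside the 10 had a listed model in ein3eil1 (7.98%) and 11 of 238 in Col (4.62%). Of all 27562 protein-coding loci, 3.46% were listed for ein3eil1 and 2.78% for Col. In either table it was 25 of 238 P450 loci (10.5%) and 5.2% of all loci. No test was made of these shares, which also depend on how many reads a gene had. The listed loci were spread over all chromosomes, with 7 on chromosome 1, 6 on chromosome 2, 3 on chromosome 3, 5 on chromosome 4 and 4 on chromosome 5. They fell into 16 of 61 annotated subfamilies, and 1 locus had no CYP symbol. Subfamilies were assigned by CYP symbol or synonym, and 17 annotated P450 loci without one, the listed locus included, are in no subfamily count. CYP89A and CYP706A had the most listed loci, 3 of 6 and 3 of 7. CYP71B, the subfamily with the most annotated loci among these 16, had 2 of 34 listed, and CYP705A had 1 of 24.

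**Figure D2:**
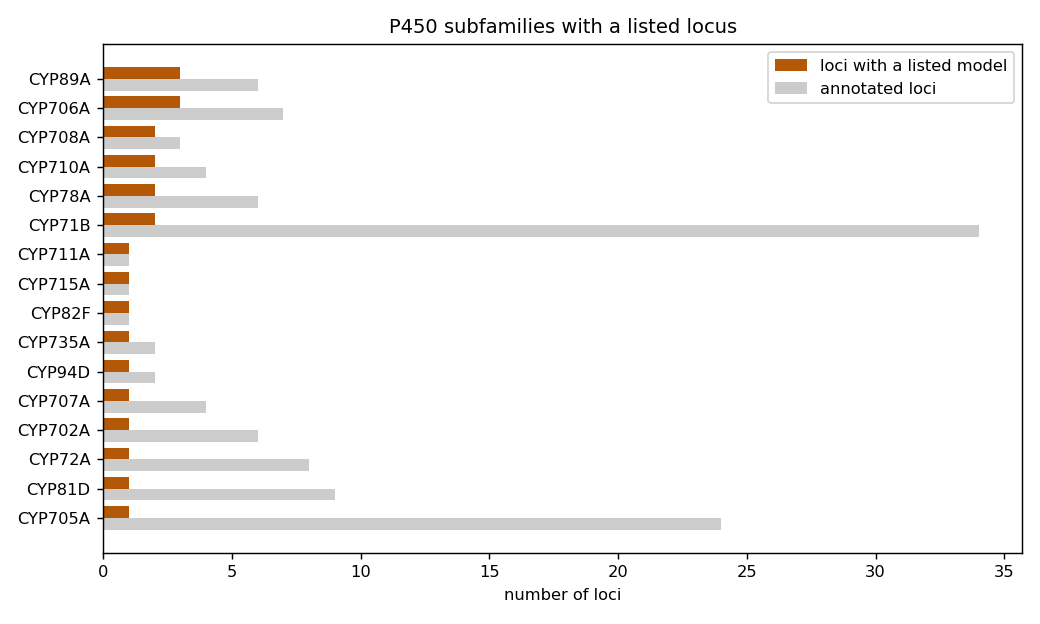
Number of loci with a listed model in either genotype (orange) and number of annotated loci (grey) for the 16 P450 subfamilies with a listed locus. CYP89A and CYP706A have 3 listed loci each, while CYP71B has 2 of 34 and CYP705A 1 of 24.

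Among hormone-related P450 genes, CYP735A2 had the highest level in each library and was lower with Cd in both genotypes. It encodes a cytokinin trans-hydroxylase, which converts isopentenyladenine-type into trans-zeatin-type cytokinins (chromosome 1, 25061731 to 25065446, minus strand; gene coordinates here come from the deposited tables, and their build is not stated). In ein3eil1 it had 27.7 RPKM with Cd and 60.3 RPKM in the control, 2.18-fold lower (interval 2.0 to 2.37). In Col it had 23.3 RPKM with Cd and 54.2 RPKM in the control, 2.33-fold lower (2.13 to 2.55). Both Cd libraries were below both control libraries, and reads numbered 677 to 1806. The other 3 genes of the cytokinin list (CYP735A1, IPT3 and CKX4) were not listed.

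CYP707A3, an abscisic acid 8'-hydroxylase that inactivates this hormone, was listed in ein3eil1 alone. It had 2.04 RPKM with Cd and 4.23 RPKM in the control there, 2.07-fold lower (1.52 to 2.85). It was the 1 listed gene of 7 in the abscisic acid list, so that neither the other hydroxylases nor the synthesis gene NCED3 was listed. CYP711A1, also known as MAX1, makes strigolactone precursors. In ein3eil1 it had 56 reads with Cd and 18 in the control, or 1.96 and 0.623 RPKM, a ratio of 3.15 (1.82 to 5.69). None of the 9 brassinosteroid genes and none of the 9 gibberellin genes, most of them P450 genes, was listed in either genotype.

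Of 6 annotated CYP78A genes, whose members are known to promote organ and seed growth, 1 was listed in each genotype, and both were lower. CYP78A6 in Col had 20 reads with Cd and 103 in the control, or 0.615 and 2.77 RPKM, 4.5-fold lower (2.77 to 7.67). It had the lowest ratio of the Col members. CYP78A8 in ein3eil1 had 15 reads with Cd and 44 in the control, 2.9-fold lower (1.58 to 5.61). CYP715A1 in ein3eil1 had 11 reads with Cd and 43 in the control, 3.87-fold lower (1.96 to 8.31), at 0.42 and 1.62 RPKM. These 3 genes had few reads, and their intervals are wide.

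By CYP symbol, 2 of 4 annotated CYP710A genes were higher in Col, and 2 of 3 annotated CYP708A genes were higher in ein3eil1. CYP710A enzymes are sterol C-22 desaturases, which make stigmasterol or brassicasterol. In Col, CYP710A3 had 416 reads with Cd and 135 in the control, or 16.7 and 4.75 RPKM, 3.53-fold higher (2.9 to 4.31). CYP710A4 in Col had 169 and 46 reads, or 6.03 and 1.43 RPKM, 4.2-fold higher (3.02 to 5.96). The genes lie next to each other on chromosome 2 (12383480 to 12384961 and 12388201 to 12389872), 3239 bases apart with no gene between. Of the 50-base windows of either coding sequence 18.6% occur in the other gene, so part of the reads could come from either copy. Neither was listed in ein3eil1, and the other 2 annotated CYP710A genes were listed in neither genotype.

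CYP708A2, thalianol hydroxylase, acts on the root triterpene thalianol, which its neighbour THAS1 makes. It had 3 listed models, with 61 reads with Cd and 13 in the control for AT5G48000.5, 43 and 12 for AT5G48000.4, and 18 and 1 for AT5G48000.1. Their sum was 122 reads with Cd and 26 in the control, 4.75-fold higher (3.09 to 7.55). The sum covers only models listed as higher, so it is not the total of the locus. If reads were counted in more than 1 model, its interval is too narrow. How reads were divided among the 7 reference transcripts of this locus is not known. THAS1 (chromosome 5, 19456960 to 19461689) had 788 reads with Cd and 371 in the control in ein3eil1, or 18.8 and 8.76 RPKM, a ratio of 2.15. No protein-coding gene lies between them in the annotation, and the other 5 of 7 genes in the triterpene list were not listed. CYP708A3, of the same subfamily, had 77 and 22 reads, 3.54-fold higher (2.18 to 5.97). CYP705A15 had 1.03 RPKM with Cd and 0.447 RPKM in the control, 2.3-fold higher (1.47 to 3.7). That value is of a long model of 3815 bases at a locus with 6 reference transcripts.

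Of 6 annotated CYP89A genes, 3 were listed as higher with Cd in ein3eil1 and 1, CYP89A2, also in Col. The 3 form a group on chromosome 1 between 24113215 and 24125324. CYP89A2 had 23.6 RPKM with Cd and 11.1 RPKM in the control in ein3eil1, 2.12-fold higher (1.86 to 2.42). In Col it had 11.7 RPKM with Cd and 5.09 RPKM in the control, 2.29-fold higher (1.9 to 2.76). CYP89A7 in ein3eil1 had 203 reads with Cd and 92 in the control, or 7.87 and 3.52 RPKM, 2.23-fold higher (1.74 to 2.89). CYP89A6 in ein3eil1 had 170 and 49 reads, or 6.59 and 1.88 RPKM, 3.51-fold higher (2.54 to 4.93). Both were absent from the Col table. The deposited descriptions give CYP89A7 and CYP89A6 another family number, while their symbols and the annotation place them in CYP89A. The coding sequence of CYP89A6 is 89.0% identical to that of CYP89A7 and 82.0% to that of CYP89A2, and 18.0% of its 50-base windows occur in another locus, mainly CYP89A5. For CYP89A7 this share is 6.52%, mainly AT2G12190, and for CYP89A2 it is 0.34%. Centring on the median log2 ratio of each table turned CYP89A2, CYP89A7 and CYP71B13 in ein3eil1 below 0. This follows by arithmetic, since no listed log2 ratio lies between -1 and 1.

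The CYP706A pair on chromosome 4 gave 1 listed gene in each genotype. CYP706A1 (11929359 to 11931693) was listed in ein3eil1, with 545 reads with Cd and 200 in the control, or 13.9 and 5.04 RPKM, 2.76-fold higher (2.34 to 3.26). CYP706A2 (11934969 to 11936755) was listed in Col, with 1143 reads with Cd and 525 in the control, or 38.1 and 15.3 RPKM, 2.49-fold higher (2.24 to 2.77). Their coding sequences are 92.1% identical, and 67.1% of the 50-base windows of CYP706A1 occur in CYP706A2 (71.2% the other way). The values of each can therefore hold reads of the other. CYP706A6, at another place on chromosome 4, had 44 reads with Cd and 6 in the control in ein3eil1, 7.42-fold higher (3.15 to 21.3), and 14.5% of its windows occur in CYP706A5.

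CYP81D8, a gene known to respond to xenobiotics and reactive lipid products, was higher with Cd in both genotypes. In ein3eil1 it had 263 reads with Cd and 86 in the control, or 9.41 and 3.04 RPKM, 3.09-fold higher (2.42 to 3.99). In Col it had 234 and 79 reads, or 8.39 and 2.48 RPKM, 3.39-fold higher (2.62 to 4.43). None of its 50-base windows occurs in another locus. CYP72A8 in ein3eil1 had 109 reads with Cd and 17 in the control, or 3.53 and 0.545 RPKM, 6.48-fold higher (3.87 to 11.5). Among ein3eil1 members with 100 or more reads in the Cd library it had the highest ratio.

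CYP94D1, of a family that includes fatty acid and jasmonate hydroxylases, had 60 reads with Cd and 20 in the control in ein3eil1, or 2.39 and 0.786 RPKM, 3.03-fold higher (1.8 to 5.31). In Col it had 142 and 60 reads, or 5.66 and 2.09 RPKM, 2.71-fold higher (1.99 to 3.73). CYP71B13 had 100 and 50 reads in ein3eil1, 2.02-fold higher (1.43 to 2.9), and 77 and 33 reads in Col, 2.67-fold higher (1.75 to 4.15). Of its windows 10.3% occur in other CYP71B loci. CYP71B9 had 26 reads with Cd and 6 in the control in Col, 4.96-fold higher (2.0 to 14.7), and stayed under 1 RPKM. AT3G44970, a P450 gene with no CYP symbol in the tables or in RefSeq, had 139 reads with Cd and 40 in the control in ein3eil1, or 5.74 and 1.63 RPKM, 3.51-fold higher (2.46 to 5.13).

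Other than CYP735A2, CYP707A3, CYP78A6, CYP78A8 and CYP715A1, given above, the members that were lower were CYP702A6 in ein3eil1 and CYP82F1 in Col. CYP702A6 had 129 reads with Cd and 301 in the control, or 4.9 and 11.3 RPKM, 2.31-fold lower (1.87 to 2.86). CYP82F1 had 259 reads with Cd and 619 in the control, or 8.65 and 18.1 RPKM, 2.09-fold lower (1.8 to 2.42). Neither was listed in the other genotype.

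**Figure D3:**
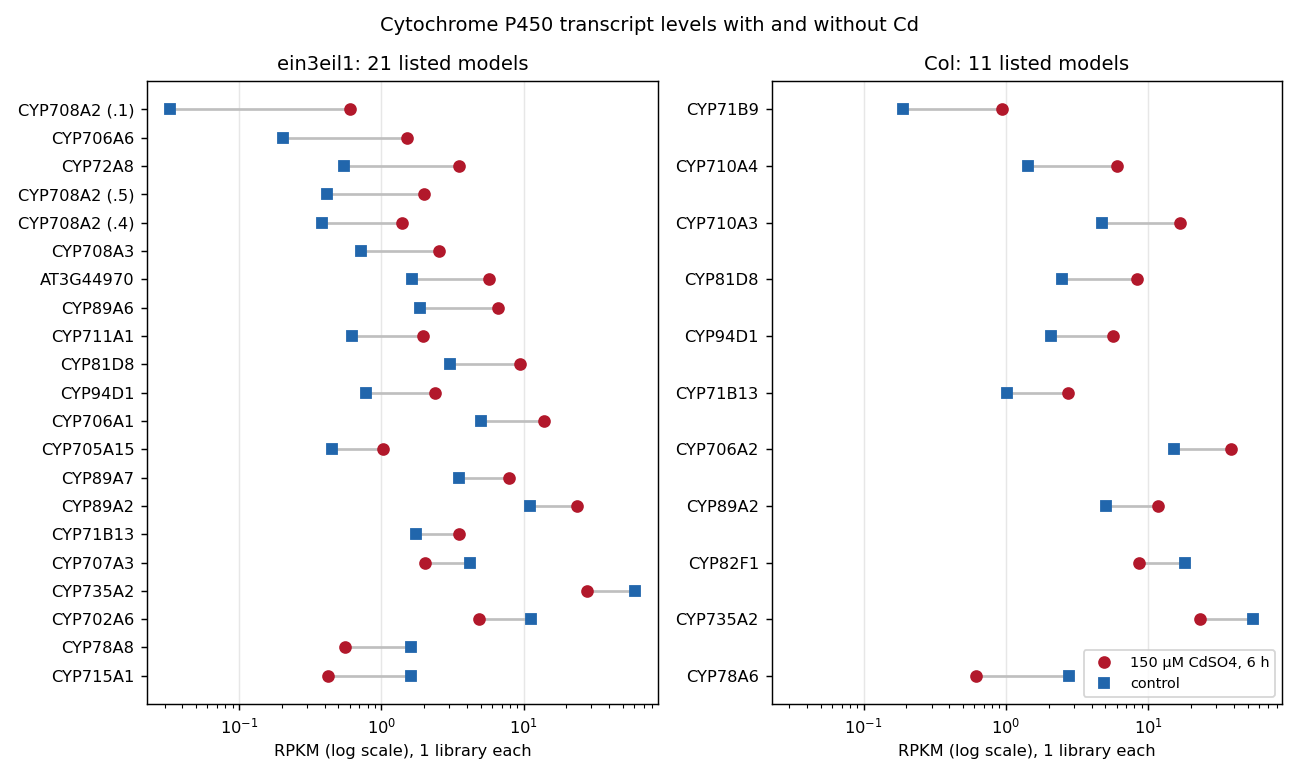
RPKM on a log axis for each listed P450 model with Cd (red circles) and in the control (blue squares), 1 library each, ein3eil1 left and Col right, ordered by ratio. CYP735A2 has the highest level in both ein3eil1 libraries (27.7 RPKM with Cd, 60.3 RPKM in the control) and in the Col control (54.2 RPKM), CYP706A2 has the highest in Col with Cd (38.1 RPKM), and most members with large ratios lie below 10 RPKM.

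P450 models listed in ein3eil1 had a median of 3.53 RPKM in the higher of their 2 libraries, against 7.54 RPKM over all models listed there. In Col the medians were 8.39 RPKM for P450 models and 7.93 RPKM for all. The 5 RPKM mark was reached by 8 of 21 models in ein3eil1 and by 8 of 11 in Col.

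The 5 models in both tables allow the genotypes to be set side by side. Each is there because it was at least 2-fold apart in both genotypes, and the members listed in 1 table alone are not among them. All 5 had the same direction in both genotypes, 4 higher and CYP735A2 lower, where 90.5% of the 285 shared models with 1 RPKM or more had the same direction and 9.47% opposite ones. The difference of log2 ratios, ein3eil1 minus Col, was 0.16 for CYP94D1 (95% normal interval from the 4 read counts -0.69 to 1.01). It was -0.11 for CYP89A2 (-0.43 to 0.21), 0.10 for CYP735A2 (-0.08 to 0.27) and -0.13 for CYP81D8 (-0.64 to 0.38). For CYP71B13 it was -0.40 (-1.17 to 0.37). Each interval held 0, so a difference in Cd response was not detectable at this depth for any of these 5, and nothing follows from it for the members listed in 1 table.

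The levels differed between genotypes for some of these genes, in both treatments. CYP89A2 was 2.19-fold higher (1.81 to 2.64) in untreated ein3eil1, with 11.1 RPKM there and 5.09 RPKM in untreated Col. With Cd it was 2.03-fold higher (1.78 to 2.31), with 23.6 RPKM in ein3eil1 and 11.7 RPKM in Col. CYP94D1 went the other way, 2.66-fold lower (1.58 to 4.65) in untreated ein3eil1 and 2.37-fold lower (1.74 to 3.26) in ein3eil1 with Cd. Of all 285 shared models, 26.0% passed 2-fold upward and 16.1% downward in untreated ein3eil1, and with Cd 22.8% and 15.8%. So 1 of 5 higher and 1 of 5 lower lies near the shares over all shared models. In the untreated libraries CYP89A2 no longer reached 2-fold after centring on the median of the shared models or with a pseudocount of 1 RPKM, and CYP94D1 no longer did with that pseudocount.

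CYP71B13 was 1.71-fold higher in untreated ein3eil1 (1.08 to 2.74), and its interval with Cd, 0.954 to 1.77 times the Col level, held 1. CYP735A2 was 1.11-fold higher (1.04 to 1.19) in untreated ein3eil1 and 1.19-fold higher (1.07 to 1.32) with Cd. CYP81D8 had ratios of 1.23 (0.895 to 1.69) and 1.12 (0.937 to 1.34). Over all shared models the median log2 ratio of ein3eil1 over Col was 0.33 untreated and 0.32 with Cd, so the ratios of CYP735A2 and CYP81D8 lie below it. The intervals of CYP81D8 in both treatments and of CYP735A2 with Cd include that median.

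**Figure D4:**
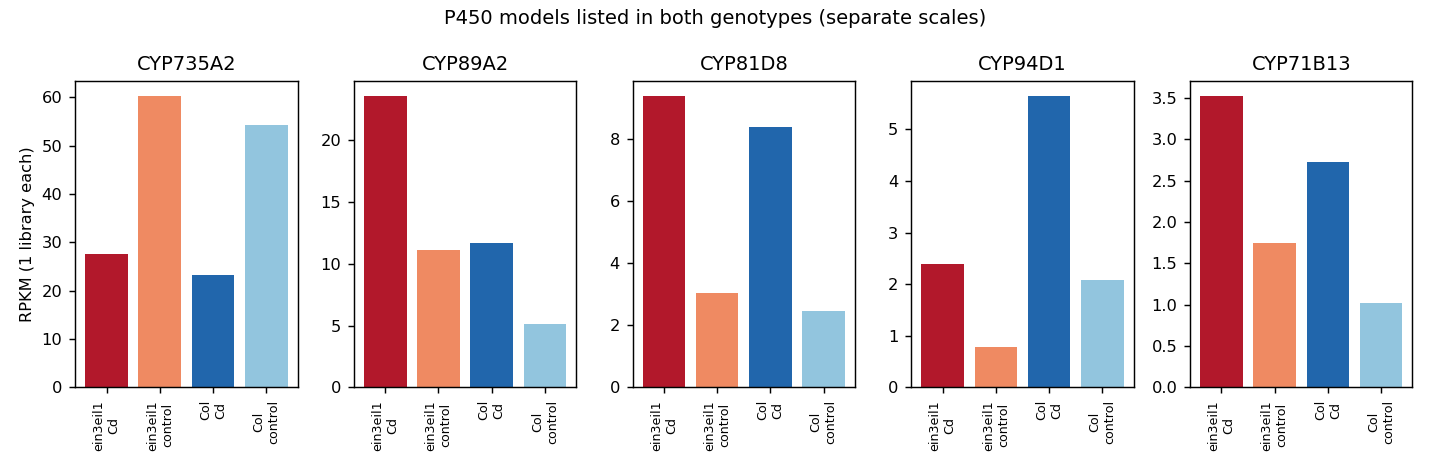
RPKM of the 5 P450 models listed in both genotypes in the 4 libraries (bars from 0, 1 library each, separate scales), ein3eil1 first. CYP735A2 is lower with Cd in both genotypes and the other 4 are higher. CYP89A2 is higher in ein3eil1 in both treatments (23.6 and 11.1 RPKM, Col 11.7 and 5.09 RPKM), and CYP94D1 is lower.

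Stretches of 250 bases before the annotated start of the 25 loci (RefSeq, TAIR10.1) were searched on both strands for short motifs. The EIN3-binding core ATGTA was in 12 of 25 members (48.0%) and in 52.0% of 27443 protein-coding loci. The W-box core TTGAC, bound by WRKY factors, was in 56.0% of members and 44.9% of all loci, and the core GAGAC of the sulfur response element in 32.0% and 25.8%. The as-1 core TGACG, bound by TGA factors, was in 16.0% and 18.6%, and the G-box CACGTG in 12.0% and 6.49%. TGACG and TTGAC can overlap in 1 stretch. Motif matches are descriptions of letters and not of binding.

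Of the 5 shared members, 2 had an ATGTA match and 3 had none, CYP735A2, CYP94D1 and CYP81D8. The stretch of CYP81D8 overlaps an exon of another gene, AT4G37380. The annotated gene of CYP94D1 starts at its coding sequence, so its stretch lies before the start codon. The stretches of both with a match and of CYP735A2 are shown, 5′ to 3′ in the direction of transcription, with ATGTA or its reverse complement TACAT in capitals, since EIN3 and EIL1 are the mutated factors. CYP89A2 (TAIR10.1 chr1:24112859-24113108, plus strand) has 1 match, CYP71B13 (chr5:8672066-8672315, plus strand) has 2, and CYP735A2 (chr1:25065447-25065696, minus strand) has 0 in this window.
CYP89A2: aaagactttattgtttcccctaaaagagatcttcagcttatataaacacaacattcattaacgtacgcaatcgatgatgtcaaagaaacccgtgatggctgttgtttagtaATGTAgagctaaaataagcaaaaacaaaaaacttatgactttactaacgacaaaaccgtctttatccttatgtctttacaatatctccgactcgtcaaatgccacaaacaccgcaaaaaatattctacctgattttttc
CYP71B13: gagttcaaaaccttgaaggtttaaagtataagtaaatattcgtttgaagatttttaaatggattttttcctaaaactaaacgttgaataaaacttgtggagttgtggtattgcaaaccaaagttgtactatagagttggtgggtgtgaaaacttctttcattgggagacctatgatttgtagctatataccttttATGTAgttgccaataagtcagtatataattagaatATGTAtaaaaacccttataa
CYP735A2: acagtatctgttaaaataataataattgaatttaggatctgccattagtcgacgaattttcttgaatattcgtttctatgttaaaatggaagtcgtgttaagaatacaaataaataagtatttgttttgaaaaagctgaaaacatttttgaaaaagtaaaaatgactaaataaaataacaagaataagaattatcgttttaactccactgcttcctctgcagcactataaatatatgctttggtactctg

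Genes of pathways with P450 steps and P450 redox partners were counted in 14 lists with 98 entries. The lists include the members CYP735A2, CYP707A3 and CYP708A2. As a background, 3.46% of all protein-coding loci were listed in ein3eil1 and 2.78% in Col. Of 6 redox partners, the cytochrome b5 gene CB5-C was listed, lower with Cd in both genotypes, while the P450 reductases ATR1 and ATR2 were not listed. CB5-C had 35.7 RPKM with Cd and 242 RPKM in the control in ein3eil1, 6.78-fold lower (6.14 to 7.49). In Col it had 16.9 RPKM with Cd and 125 RPKM in the control, 7.38-fold lower (6.41 to 8.54). Cytochrome b5 proteins pass electrons to P450 enzymes and other oxygenases. CB5-C lies beside CYP78A6 on chromosome 2, 727 bases apart. CYP78A6 was lower with Cd in Col and was not listed in ein3eil1.

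In the phenylpropanoid list, 2 of 13 genes were higher in ein3eil1 and 1 in Col, where the share of all loci listed in either direction was 3.46% and 2.78%. With lists this short, 1 or 2 listed genes are not read as a result about a pathway. In the flavonoid list, DFR was the 1 listed gene of 7, higher in ein3eil1 (13.4 RPKM with Cd and 2.47 RPKM in the control). Of 14 suberin and cutin genes, FAR4 was listed, higher in Col with 37 reads with Cd and 10 in the control, and none of the CYP86A, CYP86B, CYP77A or CYP96A genes was listed. Of 7 jasmonate genes, AOC2 and LOX2 were higher in ein3eil1, 3.16-fold and 3.08-fold, and the P450 gene AOS was not listed. The lists for sterols (4 genes), camalexin and cyanogenic defence (5), homoterpenes (2) and carotenoids (4) had no listed gene. The camalexin and cyanogenic defence list holds none of the indole defence loci that were set aside from the members. The sterol list held CYP51G1, CYP710A1, CYP710A2 and SMT1. It left out CYP710A3 and CYP710A4, which were higher with Cd in Col.

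Some tissue markers were listed too, again beside 3.46% of all loci in ein3eil1 and 2.78% in Col, and 37.6% and 44.5% of listed models with 1 RPKM or more were lower. Of 9 endodermis and suberin markers, 2 were lower in ein3eil1, with a summed level of 74.8 RPKM with Cd and 162 RPKM in the control. In Col 5 were lower and 1 higher, with sums of 184 and 420.2 RPKM over the 6 listed. Of 6 photosynthesis genes, 3 were higher in ein3eil1, with a sum of 75 RPKM with Cd and 31.4 RPKM in the control, and none was listed in Col. The xylem marker XCP2 was lower in ein3eil1, 1 of 3, and no root hair (5) or root cap (3) marker was listed. The part of these markers in the P450 values was not tested.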

How the data were processed

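The 2 deposited tables, 1 per genotype, hold for each listed gene model the authors' read counts, the authors' RPKM values, the log2 ratio of both RPKM values, with p-value and FDR, per the file headers. Which aligner, counter, strand setting and build was used is not given in the sources used here. Deposited read counts are whole numbers, and RPKM is the count over model length and 1 constant per library, which gave the library totals. The deposited log2 ratio equalled the RPKM ratio within 0.01 in 807 and 1001 models. The model length is another deposited column, in bases. Groups were taken from the sample titles.

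Ratios were computed from the deposited RPKM with no pseudocount added, and counts at 2-fold cover models that reach 1 RPKM. Every member is named; members and lists were chosen with earlier results of these data known. The search patterns, the 50-base windows (longest coding sequence per locus), identities (global alignment) and motif choices were set after the tables were seen. The exact interval of the ratio was tested on simulated, independent Poisson counts. The normal interval of the difference of log2 ratios was not tested in this way. The tools were SciPy 1.17.1, pandas 2.3.3 and numpy 2.4.6 under Python 3.11.15, with figures from matplotlib 3.10.9. Alternatives were another fold, minimum, pseudocount, centring, FDR, single-transcript loci and, added after seeing the data, loci counted once.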

Additional observations from a re-analysis of the deposited data

How the results depend on the processing

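No paired analysis was possible because each group had 1 library, with no replicate numbers to pair by. Counts are given in the order ein3eil1 higher, ein3eil1 lower, Col higher and Col lower, with 15, 5, 7 and 3 as reported. At 4-fold they were 3, 0, 1 and 1, and no shared model passed in both genotypes (0 in the same direction) or between the untreated genotypes (0 higher and 0 lower). At 5 RPKM ein3eil1 had 6 higher and 2 lower. With a pseudocount of 1 RPKM ein3eil1 had 9 higher and 2 lower, 3 shared models kept one direction at 2-fold, and 0 were higher and 0 lower in untreated ein3eil1. Centred on the median of listed models, 3 were higher in ein3eil1 and 1 in Col, 1 shared model passed in the same direction, and 0 were higher in untreated ein3eil1. Centring turned the log2 ratios in ein3eil1 of CYP89A2 to -0.081, CYP89A7 to -0.0066 and CYP71B13 to -0.15, by arithmetic, since no listed ratio lies between -1 and 1. At an FDR of 1e-05 ein3eil1 had 10 higher and 3 lower. With that FDR 3 shared models had the same direction and 0 were lower in untreated ein3eil1. At loci with 1 reference transcript ein3eil1 had 9 higher and 1 lower and Col 1 lower. The other counts stayed within 1.5 times, among them those with no minimum and with loci counted once (14, 5, 7 and 3). Models with few reads, such as AT5G48000.1 of CYP708A2 with 1 control read, have ratios that the depth hardly limits from above.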

Other observations

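Genes of the P450 family whose deposited description does not name cytochrome P450 fall outside the counts above, and 2 were found by symbol after the tables were seen. CYP84A1 (FAH1), ferulate 5-hydroxylase of the pathway to syringyl lignin and sinapate esters, was higher with Cd in both genotypes, and in the Cd libraries its level was above that of every member. It had 133.6 RPKM with Cd and 52.7 RPKM in the control in ein3eil1, a ratio of 2.53 (2.39 to 2.69). In Col it had 105.6 RPKM with Cd and 42.7 RPKM in the control, a ratio of 2.47 (2.33 to 2.63). In the same list CCR1, cinnamoyl-CoA reductase of lignin synthesis, was the other gene listed in ein3eil1, with 273 reads with Cd and 67 in the control. CYP51G2, described as an expressed pseudogene of sterol demethylase, had 127 reads with Cd and 336 in the control in ein3eil1, 2.62-fold lower (2.13 to 3.23).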
